A study of Salmo salar with 60 samples.

Results

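The probes described here were chosen for a shift on day 3 of soybean meal feeding that was away from both day 0 and day 7 in the distal intestine of Atlantic salmon. Candidates were the 16476 bright probes, those never given flag code 1 and with a median Cy5 signal of 200 or more over 59 arrays, out of 43627 probes never given that flag. For each candidate, the day 3 mean minus the day 0 mean and the day 3 mean minus the day 7 mean were taken from the authors' deposited table of log2 values and divided by the pooled SD within days. In 12485 candidates both differences had the same sign, 6653 higher and 5832 lower on day 3. The smaller of the 2 standardised differences was the score, and the 150 probes with the highest scores were the members. Of these, 90 were higher and 60 lower on day 3, and they are called rising and falling members after that sign, not after a test. Because values of days 0, 3 and 7 chose the members, their levels on those days are a description.

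Each array held Cy5-labelled RNA of 1 fish beside a Cy3-labelled reference pool of 18 fish, 3 from each sampling day. A log2 ratio compares a fish with that pool. Every fish was in Cy5, so a probe's ratio can also hold a difference between the dyes. Above, below and near the pool here mean ratios above, below and near 0. Fish of the Sunndalsøra breed weighing 500 to 600 g at the start, kept in seawater in 2 tanks of 25 to 30 fish, were adapted for 7 days to a diet with 563 g of fishmeal per kg, and those of day 0 were sampled on that diet. All later fish received a diet in which 200 g of soybean meal per kg replaced part of the fishmeal, for 1, 2, 3, 5 or 7 days, and only fish with content along the gut were sampled. There were 9 fish of day 0 (4 of tank 1 and 5 of tank 2) and 10 of each later day (5 per tank), and 1 array labelled day 1 and tank 0 entered no group. The day 0 fish differ from all others in diet as well as in time, and no fishmeal group of later days was analysed here. The labels give no age.

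The distal intestine of salmonids takes up macromolecules across its folded epithelium. Soybean meal is known to cause an inflammation there, in which the mucosal folds shorten, the enterocytes lose their supranuclear vacuoles and the lamina propria widens with infiltrating leukocytes. It develops over days and recedes when the diet is withdrawn. Tissue pieces hold epithelium, immune cells and muscle together, so fewer cells of a type and less RNA per cell cannot be told apart in these values. In the files a probe is known only by its array column (C) and row (R), so the members have no gene names, roles or sequences here, and the labelled tissue could not be checked against marker genes.

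No probe passed a Benjamini-Hochberg adjusted p of 0.05 in limma for day 3 against day 0 or against day 7, among 43627 tested, with 1167 higher and 918 lower, and 1631 higher and 1268 lower, at an unadjusted p under 0.05. The smallest adjusted p of a member was 0.956 against day 0 and 0.351 against day 7. Pairs of arrays had log ratios that correlated from -0.447 to 0.625 over all probes. The ratios keep the direction of the labelled dyes, Cy5 for the fish. The arrays lay on 15 slides of 4. Fish of 1 tank are not fully separate samples, and the p-values cover only differences from fish to fish.

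Averaged over the 90 rising members, the level relative to the pool (log2 ratio) was -0.18 ± 0.25 before soybean meal (SD, n = 9). It was -0.17 ± 0.19 after 1 day, 0.04 ± 0.30 after 2, 0.36 ± 0.24 after 3, 0.00 ± 0.20 after 5 and -0.23 ± 0.25 after 7 days (n = 10 per day). The day 3 fish ran from 0.11 through a median of 0.28 to 0.80, so all 10 lay above the pool. The day 0 fish ran from -0.53 through -0.19 to 0.19 and the day 7 fish from -0.72 through -0.24 to 0.21. The highest fish of both days overlapped with the lowest of day 3. Over the 60 falling members the mean was 0.15 ± 0.12 before soybean meal (n = 9). It was 0.15 ± 0.15 after 1 day, 0.01 ± 0.19 after 2, -0.20 ± 0.16 after 3, 0.04 ± 0.13 after 5 and 0.17 ± 0.14 after 7 days (n = 10 per day). Day 3 fish ran from -0.50 through -0.23 to 0.03 in these members, against -0.04 through 0.13 to 0.33 on day 0 and -0.13 through 0.19 to 0.41 on day 7. Most day 3 fish thus lay below the pool, and the highest of them overlapped with the lowest fish of days 0 and 7. The lowest day 2 fish was at -0.38, so day 2 covered most of the day 3 range.

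The day 3 fish differed in the size of the shift. Replicate 1 was highest, at 0.80 over the rising and -0.50 over the falling members. Replicate 7 followed at 0.61 and -0.38, replicate 9 at 0.52 and -0.26, and replicate 5 at 0.50 and -0.25. These 4 fish came from both tanks. Their arrays also had the highest median Cy5 signals of bright probes on day 3, from 1562 to 2199.5. In the arrays of the other 6 fish that signal ran from 932 to 1371. The part of array signal in these differences between fish was not tested. The other 6 fish lay between 0.11 and 0.37 over the rising members. Replicates 4 and 8 were nearest to the pool over the falling members, at 0.03 and 0.00. Without replicate 7 of day 3, 95 of the 150 members remained among the 150 probes with the highest scores, and without any other single array of days 0, 3 and 7 at least 106 did.

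Probe C090R127 had the highest score, 1.70. Its log2 ratio ran from 0.11 through a median of 0.29 to 1.14 in the 10 day 3 fish, from -0.54 through -0.15 to 0.22 in the 9 day 0 fish and from -0.64 through -0.18 to 0.30 in the 10 day 7 fish. In 8 of 10 day 3 fish it was above every day 0 fish, and in 5 of 10 above every day 7 fish. On the days that did not enter the choice it averaged -0.12 ± 0.36 (day 1), -0.07 ± 0.47 (day 2) and -0.04 ± 0.32 (day 5), levels that differed by less than the spread between fish. Probe C211R162, with a score of 1.67, averaged -0.09 ± 0.29 on day 0, 0.51 ± 0.34 on day 3 and -0.20 ± 0.38 on day 7. Of its 10 day 3 fish, 8 lay above every day 7 fish but only 3 above every day 0 fish, as 1 day 0 fish was at 0.58. It stood at -0.10 ± 0.49, 0.12 ± 0.27 and -0.14 ± 0.27 on days 1, 2 and 5.

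Probe C168R018 averaged -0.14 ± 0.30 on day 0, 0.39 ± 0.37 on day 3 and -0.28 ± 0.17 on day 7, and 0.23 ± 0.24 on day 5. Its day 5 fish were thus nearer to those of day 3 than to those of day 7. Probe C182R009 had the highest day 3 mean of the 10 best rising members, 0.59 ± 0.43, against -0.27 ± 0.55 on day 0 and -0.34 ± 0.24 on day 7. Its 10 day 3 fish, from -0.01 to 1.16, all lay above the day 7 fish, which ended at -0.03, but only 4 of 10 exceeded the highest day 0 fish. Day 2 spread most for this probe, from -0.71 to 1.53.

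The next rising members, C026R057, C014R126, C159R025, C240R073, C092R094 and C168R138, had scores from 1.47 to 1.60 and day 3 means from 0.29 to 0.49. Probe C026R057, with a median Cy5 signal of 18776, was the brightest of the 10 and averaged 0.49 ± 0.52 on day 3 and -0.16 ± 0.31 on day 0. Probe C014R126 was above every day 0 and every day 7 fish in 8 of 10 day 3 fish, at 0.41 ± 0.32 on day 3. Its day 2 level of -0.21 ± 0.57 was close to its day 0 level of -0.26 ± 0.33. Probes C159R025, C092R094 and C168R138 had day 3 fish that spread widely, with SDs of 0.70, 0.73 and 0.67, and day 3 medians of 0.20, 0.07 and 0.25 below their means of 0.42, 0.35 and 0.29. In each of the 3, at least 9 of 10 day 3 fish lay above the median of day 0 and above that of day 7, and a few much higher fish raised the mean.

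Among falling members C227R140 had the highest score, 1.46. Its log2 ratio ran from -1.10 through a median of -0.66 to -0.03 on day 3, from -0.52 through 0.11 to 0.46 on day 0 and from -0.81 through -0.02 to 0.40 on day 7. It was below every day 0 fish in 6 of 10 day 3 fish and below every day 7 fish in 4 of 10. It averaged 0.04 ± 0.37 on day 1, -0.31 ± 0.57 on day 2 and -0.09 ± 0.34 on day 5. Day 2 held its lowest single fish, at -1.21. Probe C094R084 averaged 0.02 ± 0.37 on day 0, -0.37 ± 0.22 on day 3 and 0.12 ± 0.27 on day 7, and all 10 of its day 3 fish lay below the pool, from -0.75 to -0.05. One day 0 fish, at -0.72, was almost as low as the lowest of them.

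Probe C185R019 averaged 0.15 ± 0.23 on day 0, -0.23 ± 0.19 on day 3 and 0.15 ± 0.36 on day 7, and was at -0.08 ± 0.30 on day 2. Probe C094R070 averaged 0.09 ± 0.19, -0.41 ± 0.34 and 0.15 ± 0.44 on the same days. Both were lowest on day 3. Probe C062R139, with a median Cy5 signal of 15298, had a small range, with 0.10 ± 0.15 on day 0, -0.10 ± 0.22 on day 3 and 0.13 ± 0.16 on day 7. It was at -0.07 ± 0.10 on day 2 and 0.17 ± 0.17 on day 5, so its low days were 2 and 3. The remaining 5 of the 10 falling members with the highest scores (C244R142, C231R027, C139R136, C027R163 and C243R164) had day 3 means from -0.36 to 0.01 and scores from 1.30 to 1.35. In C139R136 the day 3 mean was 0.01 ± 0.27, and the other days were higher, from 0.31 on day 2 to 0.38 on day 7. No day mean of this probe was below 0, although the pool held fish of every day. A ratio of 0 thus need not mark the pool's level.

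The threshold cut through a dense range. The members with the lowest scores, the falling probes C107R074 and C071R032, both had a score of 1.11, and the first probes outside, the rising C044R118 and C210R097, had 1.10. C107R074 averaged 0.08 ± 0.08 on day 0, -0.09 ± 0.12 on day 3 and 0.09 ± 0.22 on day 7. Its day 3 shift was small beside those of the leading members, and so was its spread, by which the score divides. C044R118, just outside, differed by 0.70 from day 0 and by 1.00 from day 7 in the authors' deposited table, with a pooled SD of 0.63.

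Over all members, the median difference between day 3 and day 0 was 0.51 for rising and -0.34 for falling members (log2), and between day 3 and day 7 it was 0.54 and -0.34. For bright probes the median was 0.02 in both comparisons. An unadjusted p under 0.05 against day 0 was given to all 90 rising members, where 2.99% of bright probes were called higher, and to all 60 falling ones, where 1.76% were called lower. Against day 7 it was given to 90 rising and 59 falling members, beside 5.38% and 3.16% of bright probes. The rule made these counts, and nothing is read from them. In 88 of 90 rising members day 3 was the highest of the 6 days, and in 58 of 60 falling members it was the lowest. Groups still overlapped in nearly every member: day 3 was clear of all day 7 fish in the rising members C182R009 and C130R017, the latter named after its values were seen, and of all day 0 fish in none. No falling member was clear of either day. For the counts of extreme days and of overlap, the share over bright probes was not computed. The rule favours both, so nothing is read from them.

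Days 1, 2 and 5 did not enter the day means of the rule, although their fish contributed to the pooled SD and the signal threshold, so comparisons among them were tested. The comparisons of days 2 and 5 with day 1 share the day 1 fish. With both tanks pooled, the members stood nearer to their day 3 side on day 2 than on day 1. By tank this held in tank 2 and not in tank 1, as given below. Of 90 rising members 82 were higher on day 2 than on day 1, where 49.8% of bright probes were, with a median difference of 0.21 and a range from -0.06 to 0.65. Of 60 falling members 54 were lower, where 50.2% of bright probes were, with a median of -0.12 and a range from -0.42 to 0.10. The median over all bright probes was 0.00. Members varied together from fish to fish, as given below. Counts of members here and in the next comparisons are therefore not counts of separate measurements. Bright probes were also not sorted by the sign of a day 3 shift. Averaged per fish, rising members stood at -0.17 ± 0.19 on day 1 and 0.04 ± 0.30 on day 2 (n = 10 each). Falling members stood at 0.15 ± 0.15 and 0.01 ± 0.19. Under median centring, which put bright probes at 0.19, the falling median turned to 0.064, still -0.12 relative to bright probes. With limma, 0 of 43627 probes passed an adjusted p of 0.05, with 952 higher and 932 lower at an unadjusted p under 0.05. At that unadjusted level 13 rising members were higher, beside 1.61% of bright probes, and 9 falling members were lower, beside 1.78%. No rising member was lower and no falling member higher at that level. The smallest p of a rising member belonged to C143R005, which averaged -0.25 ± 0.24 on day 1 and 0.28 ± 0.39 on day 2 (difference 0.53, SE 0.17, adjusted p = 0.999). Among falling members it belonged to C214R111, at 0.48 ± 0.25 on day 1 and 0.06 ± 0.17 on day 2. The day 2 level minus the day 1 level was -0.42 (SE 0.11, adjusted p = 0.973).

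With both tanks pooled, day 5 was likewise on the day 3 side of day 1 for most members. In tank 1 alone this was weaker for rising members and did not hold for falling members, as given below. Of the rising members 72 were higher on day 5 than on day 1, beside 50.3% of bright probes, with a median of 0.20. Of the falling members 47 were lower, beside 49.7%, with a median of -0.08. Under median centring, with bright probes at 0.15, the falling median was 0.075, or -0.07 relative to them. In limma 0 probes passed the adjusted threshold, with 1425 higher and 1244 lower at an unadjusted p under 0.05. At the unadjusted level 9 rising members were higher, beside 4.57% of bright probes, and 6 falling members were lower, beside 4.02%. C182R153 had the smallest p of the rising members. It averaged -0.27 ± 0.49 on day 1 and 0.35 ± 0.30 on day 5. Between them it stood at 0.03 ± 0.53 on day 2 and at its highest, 0.52 ± 0.34, on day 3. Day 5 minus day 1 was 0.62 (SE 0.20, adjusted p = 0.795). C235R018 had the smallest p of the falling members, at 0.24 ± 0.43 on day 1 and -0.22 ± 0.21 on day 5 (adjusted p = 0.795). It was as low on day 5 as on day 3, when it stood at -0.20 ± 0.45.

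Between days 2 and 5 the medians of the members lay near 0. Of the rising members 43 were higher and 47 lower on day 5 than on day 2, with a median of -0.02, and of the falling members 34 were higher and 26 lower, with a median of 0.02. Of bright probes 52.1% were higher and 47.9% lower. In limma 0 probes passed the adjusted threshold, with 1528 higher and 1399 lower at an unadjusted p under 0.05. At that level 4 rising members (C143R005, C036R023, C079R030 and C135R033) were lower, beside 4.43% of bright probes. Of the falling members C062R139, C027R163 and C214R111 were higher, beside 4.96%, and C235R018, C213R072 and C128R044 were lower, beside 4.43%. Each of these counts was near the share of bright probes called in that direction, so nothing is read from them. Those of the probes listed here that lie outside the rule for named members were named after their values were seen. C143R005 had the smallest p of the rising members, at 0.28 ± 0.39 on day 2 and -0.27 ± 0.42 on day 5 (difference -0.55, SE 0.17, adjusted p = 0.705). C062R139 had the smallest p of the falling members, with a difference of 0.25 (SE 0.08, adjusted p = 0.705). Of the 3 days, day 2 had the mean nearest to that of day 3 in 44 rising members, day 5 in 42 and day 1 in 4, and for falling members the numbers were 32, 25 and 3. Among bright probes, day 1 was the highest of the 3 days in 31.7% and the lowest in 31.7%.

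The median difference between days 1 and 2 was large in tank 2 and near 0 in tank 1. In tank 2 the median difference was 0.42 for rising members, 87 of 90 being higher on day 2, and -0.30 for falling members, 59 of 60 being lower. Of bright probes in tank 2, 48.3% were higher and 51.7% lower, with a median of -0.01. In tank 1 the median was -0.02 for rising members, with 43 of 90 higher, and 0.08 for falling members, with 17 of 60 lower. Of bright probes in tank 1, 51.7% were higher and 48.3% lower, with a median of 0.01. Averaged over the rising members, the 5 fish of tank 2 stood at -0.25 ± 0.12 on day 1 and 0.18 ± 0.25 on day 2, and those of tank 1 at -0.10 ± 0.23 and -0.09 ± 0.30. In tank 1, 4 of 5 day 2 fish were below the pool and 1 was at 0.44. On day 2 no slide held fish of both tanks, so tank and slide cannot be told apart there. The tank differences of days 2 and 5 against day 1 were not fitted with slide as a block. The tank difference was tested after it was seen. In limma 0 of 43627 probes passed the adjusted threshold, with 1344 higher and 1421 lower at an unadjusted p under 0.05. At that level 10 rising members had the larger difference in tank 2, beside 3.86% of bright probes, and 14 falling members did, beside 3.83%. For day 5 against day 1 the median of rising members was 0.31 in tank 2 and 0.07 in tank 1. Falling members had -0.23 and 0.06, beside -0.01 and 0.01 for bright probes. Of 90 rising members 70 were higher in tank 2 and 54 in tank 1, beside 48.6% and 51.6% of bright probes. Of 60 falling members 56 were lower in tank 2 and 23 in tank 1, beside 51.4% and 48.4%. At an unadjusted p under 0.05, the day 5 minus day 1 change of 4 rising members was lower in tank 1 than in tank 2. Of bright probes 2.28% were called so. The change was higher in tank 1 for 1 rising and 7 falling members, beside 2.48% of bright probes. In limma 0 probes passed the adjusted threshold, with 1075 higher and 1057 lower at the unadjusted level.

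On day 3 the rising members averaged 0.33 ± 0.22 in tank 1 and 0.39 ± 0.28 in tank 2, and the falling members -0.20 ± 0.14 and -0.20 ± 0.20 (n = 5 each). The score divides by the SD within days, which holds the differences between tanks, so probes with large ones were less likely to be chosen. The tank values that follow are therefore not independent of the rule, and nothing is read from their size or counts. The difference between tanks in the change from day 0 to day 3 had a median of -0.04 for rising and -0.02 for falling members. In limma 0 probes passed the adjusted threshold for it, with 673 higher and 661 lower at an unadjusted p under 0.05. At that level were 1 rising member, C240R073, and 0 falling members, beside 0.765% of bright probes higher and 0.37% lower. The day 3 minus day 0 change of C240R073 in tank 1 minus that in tank 2 was -1.13 (SE 0.39). For the change between days 7 and 3 the value was -0.93, and C240R073 was again the only member at that level, beside 0.31% of bright probes higher and 0.595% lower. There 0 probes passed the adjusted threshold, with 581 higher and 622 lower at the unadjusted level. Over all days together, tank 1 minus tank 2 gave 0 probes past the adjusted threshold, with 915 higher and 1024 lower at the unadjusted level. Among members, C232R008 (rising) and C119R124 (falling) were then higher, beside 1.48% of bright probes, and the rising C056R028, C056R087 and C087R065 lower, beside 2.27%. With scores from 1 tank alone, 54 of the 150 members were among the 150 highest in tank 1 and 55 in tank 2; each tank's fish had also helped to choose the members.

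Slides held unequal numbers of fish of each day, and signal differed between days. With slide as a block, the median difference between days 2 and 1 was 0.28 for rising and -0.17 for falling members, and between days 5 and 1 it was 0.30 and -0.20. For day 5 minus day 2 the block turned the signs: the median was 0.05 for rising members, 56 of 90 being higher, and -0.03 for falling members, 39 of 60 being lower. Of the 16476 bright probes 8564 were then higher and 7912 lower. The median Cy5 signal of bright probes was lowest in the day 1 fish, at 1035 ± 175 (n = 10), and highest in the day 3 fish, at 1403 ± 407 (n = 10). It was 1220 ± 350 on day 0 (n = 9) and 1246 ± 218 on day 7 (n = 10). Over the bright probes of an array, the ratio of the median Cy5 signal to the median Cy3 signal was also taken. This ratio averaged 0.03 (log2) in the day 1 fish, 0.13 in those of day 0, and 0.33 to 0.39 in the later ones. Its part in the members' differences was tested only as a covariate. With this ratio as a covariate, the median difference between days 2 and 1 was 0.14 for rising members, 78 of 90 being higher, and -0.08 for falling members, 49 of 60 being lower. Bright probes were then higher in 8086 and lower in 8390 of 16476. Between days 5 and 1 the same covariate gave 0.14 for rising members, 69 of 90 being higher. For falling members it gave -0.06, 39 of 60 being lower. Of bright probes 8440 were then higher and 8036 lower. With the arrays' position on the slide as a block, the medians between days 2 and 1 were 0.20 for rising and -0.12 for falling members.

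The members varied together from fish to fish. Correlations were taken between deviations from the day mean over the 30 arrays of days 1, 2 and 5, which share slides, labelling and normalization. Pairs of rising members had a median correlation of 0.34, and 56.6% of 4005 pairs were above 0.3. Pairs of falling members had a median of 0.29, with 48.7% of 1770 pairs above 0.3. Between rising and falling members the median was -0.26, with 43.7% of 5400 pairs below -0.3. Over all pairs of bright probes the median was 0.00, with 20.9% above 0.3 and 20.4% below -0.3. Members were sorted by the sign of their day 3 shift, while the bright pairs mix both signs, so the bright pairs are not a like comparison. A fish high in one rising member tended to be high in others, so the members are not separate measurements.

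Some members were closely correlated from fish to fish. Linking members whose deviations correlated at 0.85 or more, a limit chosen after the correlations were seen, gave 5 sets with 20 members. All 20 were rising members, and the highest correlation of a falling pair was 0.81. Of rising pairs 0.22% lay from 0.85 to 0.9, 0.35% from 0.9 to 0.95 and 0.07% above. Of bright pairs 0.14%, 0.04% and 0.003% did. The share of bright probes that would be linked was not computed, so nothing is read from the number of linked members. The closest set held C080R002, C016R033, C005R020, C097R088 and C075R075, with correlations from 0.91 to 0.96. Its mean ran from 0.08 through a median of 0.39 to 1.00 in the day 3 fish, from -0.36 through -0.14 to 0.67 on day 0 and from -1.13 through 0.04 to 0.25 on day 7. Days 1, 2 and 5 averaged -0.03 ± 0.46, 0.07 ± 0.32 and 0.15 ± 0.26. All 10 day 3 fish were above the pool, and some fish of every other day lay within their range, among them 2 of day 0, at 0.45 and 0.67.

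A further set joined C159R025, C092R094, C168R138 and C253R092, with correlations from 0.85 to 0.93. Its mean on day 3 was 0.37 ± 0.67, with 3 fish far above the rest: replicate 7 was at 1.76, replicate 1 at 1.13 and replicate 9 at 0.85, while the other 7 lay between -0.29 and 0.32. On day 7 replicate 10 was at 0.91 and the other 9 between -1.01 and 0.04. The day 1 fish of this set were all below the pool, from -0.89 to -0.03. Another set of 5 probes (C182R009, C254R152, C130R017, C135R033 and C176R029) averaged 0.44 ± 0.47 on day 3 and -0.24 ± 0.37 on day 5. The day 5 means of its probes differed, from -0.51 in C135R033 to 0.07 in C130R017. Its most distant pair correlated at 0.69, and its day 3 fish ran from -0.38 in replicate 10 to 0.95 in replicate 3, so its order of fish was not that of the set with C159R025.

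The set of C015R036, C111R108, C005R062 and C087R065 averaged 0.28 ± 0.25 on day 3, against -0.14 ± 0.22 on day 0 and -0.15 ± 0.49 on day 7. Days 1, 2 and 5 averaged -0.33 ± 0.25, -0.05 ± 0.33 and -0.11 ± 0.27, so day 1 was its lowest day. The pair C202R156 and C125R162 correlated at 0.93, and their mean ran from -0.61 to 1.48 on day 3 and from -1.37 to 0.82 on day 0. Members of a set lay at least 13 spots apart on the array. Sharing of a transcript within a set was not tested, as the probes carry no sequence here.

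Rising members had a higher median signal than falling ones, which was not tested. Their median Cy5 signal was 1924, against 1279 for falling members and 1197 for bright probes, and their median SD within days in the authors' deposited table was 0.40, against 0.30 and 0.39. Signals ran from 227 to 31938 in rising and from 284 to 65146 in falling members. The value of 65146 belonged to C056R107, and the brightest of all bright probes had 65266. Saturation of the signal was not tested. Flag code 3, which has no key, was given on some array to 24 rising and 10 falling members, and to none of them on all arrays. Of the 16476 bright probes 4026 had it on some array and 87 on all. Over the 4 corner blocks of the array, 20.0% to 30.0% of rising and 20.0% to 26.7% of falling members lay in each, where 24.7% to 25.3% of bright probes lay.

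The probes most like the leading members over the 30 arrays of days 1, 2 and 5 were looked for among all 43627 probes. For C090R127 they were C081R050, C140R072 and C245R074, with correlations of 0.66, 0.65 and 0.65. Of these, C081R050 also stood high on day 3, at 0.78 against -0.37 on day 0 and -0.57 on day 7, and ranked 203 by score, outside the members. C140R072 and C245R074 had day 3 means of -0.12 and 0.14. For C227R140 they were C222R019, C204R139 and C090R122, with correlations of 0.81, 0.79 and 0.79, and day 3 means of -0.18, -0.15 and -0.39. None of these 6 probes was a member.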

How the data were processed

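For each array the authors deposited background-corrected median intensity values of 45220 spots in Cy3 and Cy5 with flag codes, per the file headers; the correction method is not stated there and the codes have no key there. A second deposited table holds log2 values of 43689 probes. It tracked log2(Cy5/Cy3) with every probe's median at 0, and column medians ran from -0.0232 to 0.0252. Each column correlated best with its own array (0.949 to 0.997). These correlations used 14678 probes picked by their lowest signal in both dyes, not the bright probes defined above. How arrays were normalized for it is unknown.

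The rule used that table. Levels and tests started from the intensities: values below 0 became 0, 50 was added, and log2(Cy5/Cy3) was loess-normalized within arrays, so changes of dim probes are understated. limma 3.58.1 (R 4.3.3; lmFit, eBayes) fitted day means of 59 arrays, with Benjamini-Hochberg adjustment across 43627 probes. Tank tests used day with tank, with or without their interaction. The fit and the rule were run on simulated data with planted changes larger than those of the members. Recovery of changes as small as the members' was not tested. Slides were read from the headers. Named probes are the 10 rising and 10 falling members with the highest scores, probes beside the threshold, the smallest p per direction among days 1, 2 and 5, and the most alike probes; probes of the linked sets were named after their values were seen. The members and lists were chosen with earlier results of these data known. Gene and cell type lists gave no result, since probe positions match no entry of the reference gene table. The number of arrays limits the precision.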

Additional observations from a re-analysis of the deposited data

Results flagged for a closer look

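Among the fish of each day, the highest or lowest was set against the rest for the 2 means over members and 26 named members, 168 sets in all. It stood apart in 10, where chance gives about 8.4. On day 3, C090R127 was at 1.14 in replicate 7, above the next fish at 0.61, and C143R005 was at -1.0 in replicate 10, below the next at 0.05. On day 7, replicate 10 stood on the day 3 side in 3 probes: C159R025 at 1.03 (next -0.03), C168R138 at 1.02 (next -0.01) and C227R140 at -0.81 (next -0.21). C159R025 and C168R138 belong to 1 linked set. C182R009 was at -0.91 in replicate 7 of day 7 (next -0.45). On day 0, C211R162 was at 0.58 in replicate 6 (next 0.03) and C182R153 at 0.30 in replicate 9 (next -0.17). On day 1, replicate 5 was high in C139R136 at 1.15 (next 0.57) and in C071R032 at 0.45 (next 0.09).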

How the results depend on the processing

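Alternatives with tanks apart, the signal ratio, position and single arrays of days 1, 2 and 5 left out were added after seeing the data. Of the 150 members, 133 remained with a signal minimum of 100, 130 with 400, 130 with loess values, 109 with the SD of days 0, 3 and 7, 146 with the tank 0 array, 54 and 55 in tanks 1 and 2 alone, and 95 (without replicate 7 of day 3) to 140 without 1 array. Median centring moved the median of bright probes by 0.19 (day 2 against 1) and 0.15 (day 5 against 1); falling members were then at 0.064 and 0.075, which is -0.12 and -0.07 relative to bright probes. For falling members the medians were 0.077 and -0.305 in tanks 1 and 2 (day 2 against 1) and -0.230 in tank 2 (day 5 against 1). Array weights gave 1 probe past the adjusted threshold for day 5 against day 1, and every other setting run gave 0 in each comparison. Leaving out 1 array, day 2 minus day 1 ran from 0.15 to 0.26 for rising and from -0.17 to -0.08 for falling members, day 5 minus day 1 from 0.15 to 0.23 and -0.12 to -0.06, and day 5 minus day 2 from -0.06 to 0.02 and -0.01 to 0.05. With the replicate block the medians were 0.24 and -0.12 (day 2 against 1) and 0.21 and -0.09 (day 5 against 1), and it changed no call. Deviations under the same replicate number correlated at 0.05 on average (-0.73 to 0.81). Pairs with different numbers were not set beside them, so whether the numbers pair the fish was not tested. The cause of these shifts was not tested.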

Other observations

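The array labelled day 1 and tank 0, which entered no group, had a mean log2 ratio of -0.12 over the rising members and 0.05 over the falling members. Both values lie within the range of the 10 day 1 fish, which ran from -0.43 to 0.18 and from -0.17 to 0.42.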
